A study of Rattus norvegicus with 12 samples.

Results

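The genes described here are 44 antioxidant genes and targets of NRF2, followed by RNA sequencing in cultured rat heart muscle cells. They were taken by gene symbol alone, and 43 of the 44 had a row among the 17312 symbols of the series. All 43 had at least 1 FPKM (fragments counted, scaled to transcript length and to the size of the library) in at least 3 libraries, as did 10518 symbols in all, and were tested. Mt1, a metallothionein, had no row under that symbol. The cells were ventricular cardiomyocytes of newborn Wistar rats, and 12 libraries formed 4 groups of 3: stretched with an siRNA against Wnt5a (stretched Wnt5a siRNA), stretched with a control siRNA (stretched control), unstretched with the Wnt5a siRNA (unstretched Wnt5a siRNA) and unstretched with the control siRNA (unstretched control). Every library thus came from cells given an siRNA. The labels state neither the degree nor the length of the stretch. They do not say either whether numbered replicates came from separate cultures, and every p-value here rests on the library-to-library spread alone, in part perhaps technical.

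NRF2, encoded by Nfe2l2, is a transcription factor that KEAP1 holds at low levels by marking it for breakdown; oxidants and electrophiles block KEAP1, and NRF2 then binds antioxidant response elements with small MAF proteins. Its targets include enzymes that make glutathione, recycle thioredoxin, supply NADPH and conjugate electrophiles. Heart muscle cells, rich in mitochondria, remove superoxide with superoxide dismutases and hydrogen peroxide with catalase, glutathione peroxidases and peroxiredoxins.

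Stretch with control siRNA moved most of these genes, in both directions: glutamate cysteine ligase (Gclc), glutathione synthetase (Gss), sulfiredoxin (Srxn1) and Gpx8 rose, while catalase (Cat) and 6 of the 7 glutathione transferases fell. Of the 43 members, 14 (32.6%) were higher and 16 (37.2%) lower, at an adjusted p under 0.05 in limma. Of all 10518 genes tested, 27.5% were higher and 26.8% lower, so that this shift of many members came with a shift of many genes. With the Wnt5a siRNA, stretch moved 6 members (14.0%) up and 3 (6.98%) down, against 8.44% and 7.59% of all genes. These 2 comparisons share no library, but they share one estimate of the spread. In both, 6 members were called in the same direction, Nfe2l2, Hmox1, Gss and Prdx1 higher and Gclm and Gstm2 lower. The share of all genes called the same way in both is not given here. With the replicate block, neither Hmox1 with control siRNA nor Prdx1 with Wnt5a siRNA was called. With each library scaled to one total (TPM scaling, below), Nfe2l2 and Prdx1 were called in neither comparison, and Hmox1 was not called with control siRNA. The median log2 change of the members was −0.00 with control siRNA and 0.14 with Wnt5a siRNA, against 0.01 and −0.01 over all genes.

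Under stretch, the Wnt5a siRNA libraries had 3 members (6.98%) higher and 6 (14.0%) lower than the control siRNA libraries, with 13.2% and 14.2% of all genes called higher and lower. Gclc, Gss and Srxn1, which stretch raised with control siRNA, were among the 6. Without stretch, 6 members (14.0%) were higher and 13 (30.2%) lower with the Wnt5a siRNA, against 14.6% and 13.9% of all genes. The 13 included catalase, Gpx1, Txnip and Gsta4. The median log2 change of the members was −0.07 with stretch and −0.20 without it, against 0.00 in both over all genes. The interaction term, the stretch change with Wnt5a siRNA minus that with control siRNA, was called in 13 members, 7 (16.3%) above 0 and 6 (14.0%) below it, with 11.7% and 12.1% of all genes. The comparisons share libraries: stretch with control siRNA uses both control siRNA groups, the comparisons of the Wnt5a siRNA with and without stretch use 1 of them each, and the interaction uses all 4 groups.

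Library sums bear on these counts. Summed FPKM ran from 619742 to 659933 in the stretched Wnt5a siRNA, 676014 to 709021 in the stretched control, 575161 to 607276 in the unstretched Wnt5a siRNA and 588509 to 598628 in the unstretched control libraries. The median ratio factor, the median over genes of a library's FPKM against the geometric mean of all libraries, ran from 1.00015 to 1.00607. By that measure the deposited values were already level. Median ratio scaling gave 15 members higher and 16 lower for stretch with control siRNA. The share of all genes under it is not given here. When each library was scaled to one total (TPM scaling), the median of all genes moved to −0.20 for stretch with control siRNA, and 7 members (16.3%) were higher and 24 (55.8%) lower, against 13.8% and 42.8% of all genes. The 16 lower calls were kept and 7 of the 14 higher calls were: Nqo1, Gclc, Gss, Pgd, Gpx8, Txn1 and Srxn1. For Wnt5a siRNA with stretch the median moved to 0.10 and the members to 7 higher and 4 lower (20.8% and 7.7% of all genes). For stretch with Wnt5a siRNA it moved to −0.12, with 3 higher and 7 lower (4.75% and 16.9%), and for the interaction to 0.09, with 13 above and 4 below 0 (15.3% and 7.73%).

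Stretched control library 3 stood apart from libraries 1 and 2, in these genes and over all genes. It was the lowest of its group in 27 of the 43 members and the highest in 14, and its median distance from the mean of libraries 1 and 2 was 0.25 in log2(FPKM + 1), against 0.11 between libraries 1 and 2. Over all 10518 genes it was the lowest in 4377 and the highest in 4240, and these distances were 0.21 and 0.12. Srxn1, Gclc and Hmox1 were furthest below the other libraries, by −1.37, −0.76 and −0.54, and Gstt1 and Mt2A furthest above, by 0.97 and 0.93. Without it, stretch with control siRNA moved 15 members up and 14 down (29.2% and 28.1% of all genes), Wnt5a siRNA with stretch 5 up and 15 down (21.8% and 22.6%), and stretch with Wnt5a siRNA 11 up and 6 down (12.6% and 12.3%), the last through the smaller estimate of the spread alone. The interaction had 10 above and 9 below 0 (16.5% and 18.1%).

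**Figure D1:**
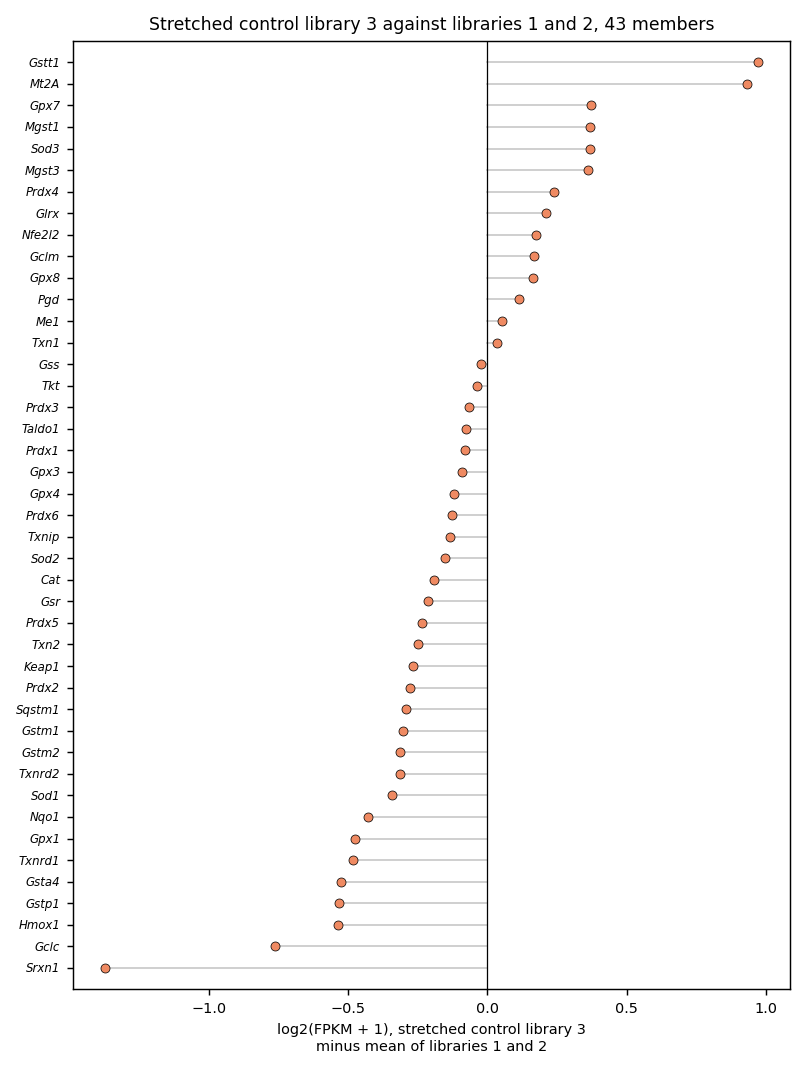
Difference in log2(FPKM + 1) between stretched control library 3 and the mean of libraries 1 and 2 (horizontal axis) for each of the 43 members (vertical axis), sorted by the difference. Srxn1 lies at −1.37 and Gclc at −0.76, at the lower end, and Gstt1 at 0.97, at the upper end.

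The label of the cells held for heart muscle genes, with other cells present. The summed FPKM of 10 cardiomyocyte markers was 15843 to 19656 in the stretched Wnt5a siRNA, 18559 to 27928 in the stretched control, 18768 to 19780 in the unstretched Wnt5a siRNA and 24088 to 26744 in the unstretched control libraries. Sums of 10 fibroblast markers were 8781 to 9401, 4799 to 8308, 5211 to 5497 and 3464 to 3970 in the same order of groups, and of 10 macrophage markers 332 to 370, 285 to 484, 134 to 145 and 155 to 196. Sums of 8 smooth muscle and pericyte markers were 3254 to 3757, 4204 to 7104, 4355 to 6456 and 4591 to 5691, and under stretch 5 of the 8 were called lower and 0 higher with Wnt5a siRNA. Sums of 8 endothelial markers were 45.0 to 77.3, 26.0 to 37.2, 14.3 to 31.8 and 20.9 to 34.4, with 2 of the 8 called higher and 0 lower in that comparison. Of all genes, 13.2% were called higher and 14.2% lower there. Calls in the other marker lists are not given here. Col1a2, a fibroblast collagen gene, was listed at 0 in all 12 libraries. Stretched control 3 had the lowest cardiomyocyte and the highest fibroblast and macrophage sums of its group. In bulk RNA, fewer cells of a type and less RNA per cell cannot be told apart, and the part of these sums in the changes below was not tested. Wnt5a, the siRNA target, was at 6.22, 5.88 and 5.56 FPKM in the stretched Wnt5a siRNA libraries, against 6.52, 5.66 and 8.22 in the stretched control, a difference that did not pass the test (log2 change −0.17 ± 0.14 SE, adjusted p = 0.387). Without stretch it was at 6.15, 4.60 and 6.81 FPKM, against 12.3, 10.4 and 11.6 (−0.87 ± 0.14, adjusted p = 0.00142), and stretch with control siRNA lowered it too (−0.68 ± 0.14, adjusted p = 0.00139). The comparison under stretch is therefore one between libraries labelled Wnt5a siRNA and control siRNA whose Wnt5a levels overlapped.

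**Figure D2:**
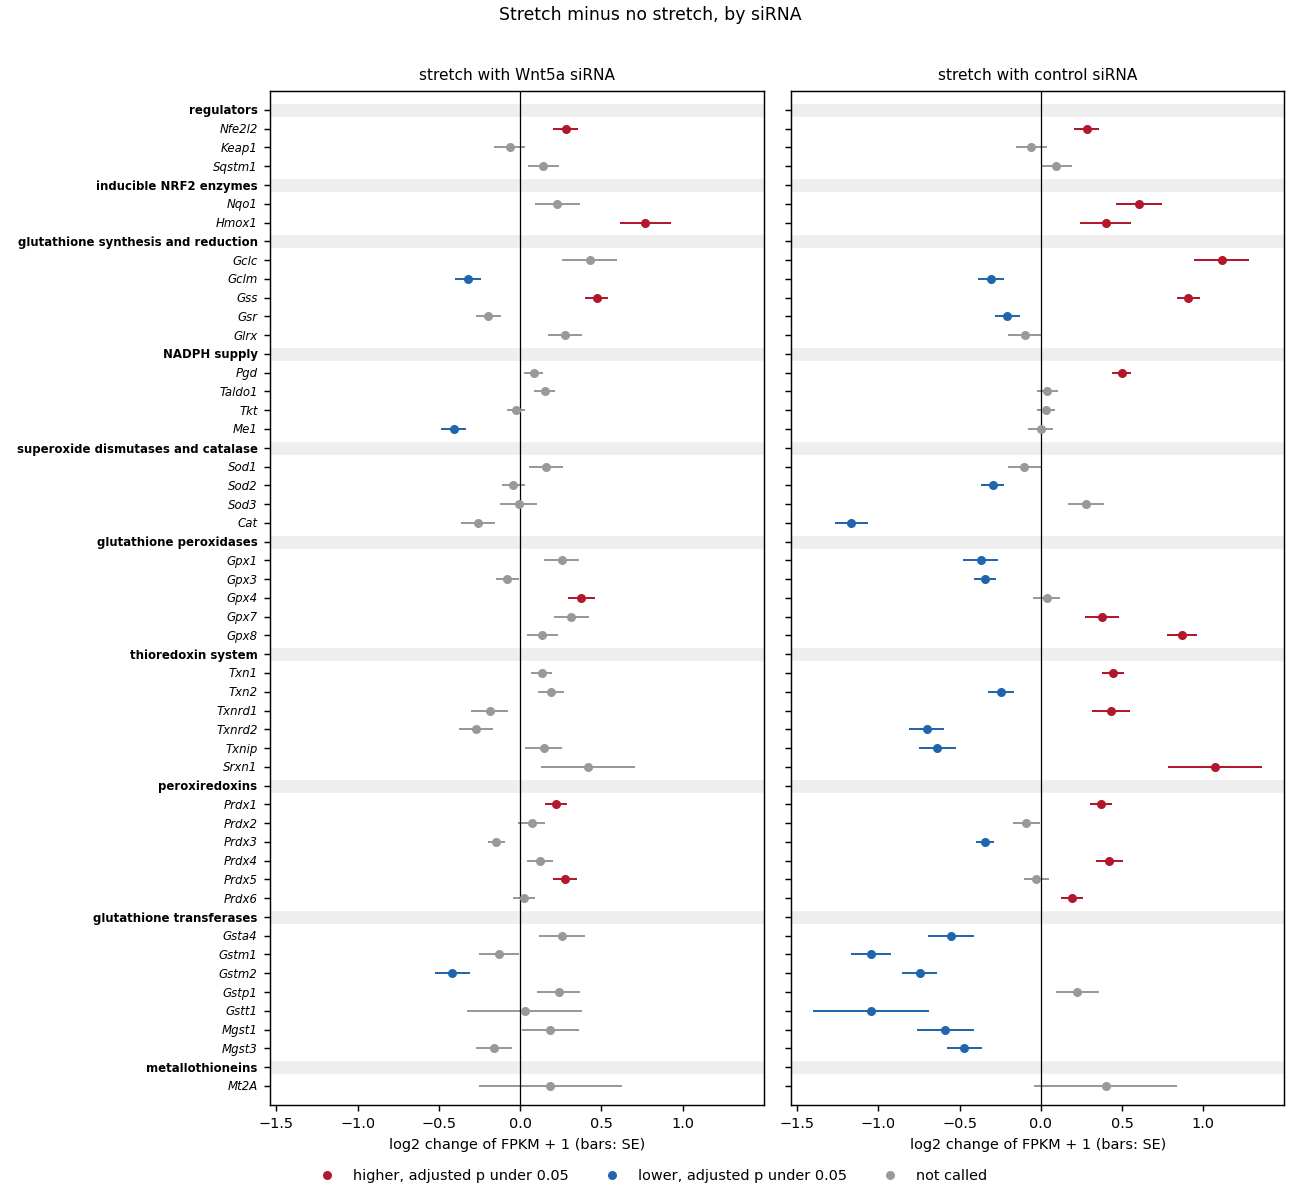
Log2 change of FPKM + 1 with stretch (horizontal axis, bars: SE from the limma fit) for the 43 members by role, with Wnt5a siRNA on the left and control siRNA on the right; red and blue mark members called higher and lower. With control siRNA the points spread from −1.17 for Cat to 1.11 for Gclc, and with Wnt5a siRNA from −0.42 for Gstm2 to 0.77 for Hmox1.

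Among the regulators, Nfe2l2 rose with stretch in both siRNA groups. It was at 99.1, 98.4 and 97.8 FPKM in the stretched and 82.1, 76.8 and 83.7 in the unstretched Wnt5a siRNA libraries, and at 84.3, 96.9 and 102 in the stretched and 80.0, 71.4 and 80.8 in the unstretched control libraries. All stretched libraries lay above all unstretched ones. The log2 change was 0.28 ± 0.08 with Wnt5a siRNA (adjusted p = 0.026) and 0.28 ± 0.08 with control siRNA (adjusted p = 0.00768), and the interaction was 0.00 ± 0.11. With TPM scaling the change was 0.16 (adjusted p = 0.202) with Wnt5a siRNA and 0.06 (0.603) with control siRNA, and after quantile normalization 0.23 (0.0860) and 0.15 (0.167). The first call was also lost without stretched Wnt5a siRNA 1 (0.0844), 2 (0.0700) or 3 (0.0605) or unstretched Wnt5a siRNA 1 (0.0669) or 2 (0.0897). Keap1, whose product is the brake on NRF2, was at 15.4, 14.7 and 16.8 FPKM in the stretched Wnt5a siRNA and 19.4, 19.4 and 15.9 in the stretched control libraries, with 15.5, 15.6 and 18.1 against 18.0, 20.2 and 18.6 without stretch. These groups overlapped and no comparison passed, except stretch with control siRNA under TPM scaling (−0.27, 0.0344). The difference under stretch was −0.20 ± 0.09, and −0.29 (adjusted p = 0.0164) without stretched control 3. Sqstm1, which encodes p62, an autophagy receptor that binds KEAP1, averaged 146 to 169 FPKM over the 4 groups and passed in no comparison.

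The inducible enzymes Nqo1, a quinone reductase, and Hmox1, heme oxygenase, both rose with stretch under control siRNA, and without stretch the Wnt5a siRNA raised Nqo1 and lowered Hmox1. Nqo1 was at 88.3, 68.9 and 75.5 FPKM in the stretched Wnt5a siRNA libraries and at 73.3, 88.8 and 59.7 in the stretched control. At rest it was at 67.4, 58.3 and 72.1 with Wnt5a siRNA, against 42.9, 46.6 and 54.1 with control siRNA. The unstretched control libraries were below all others. Under control siRNA stretch raised it by 0.60 ± 0.14 (adjusted p = 0.00306), and the Wnt5a siRNA without stretch by 0.45 ± 0.14 (0.0296). The call for the siRNA was lost without unstretched Wnt5a siRNA 1 (0.0864) or 3 (0.0942) or unstretched control 1 (0.1003) or 2 (0.0810).

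Hmox1 was at 29.1, 30.7 and 32.8 FPKM in the stretched Wnt5a siRNA libraries and at 35.6, 43.2 and 26.7 in the stretched control. At rest its levels were 15.8, 16.2 and 21.4 with Wnt5a siRNA, against 22.8, 28.7 and 26.7 with control siRNA. The unstretched Wnt5a siRNA libraries were the lowest, and stretched control 3 lay within the unstretched control range. With Wnt5a siRNA, stretch raised it by 0.77 ± 0.16 (adjusted p = 0.0064), the one member with a change of at least 0.58 there. With control siRNA the change was 0.40 ± 0.16 (0.0467), and this call was kept without stretched control 3 (0.58, 0.0029), unstretched Wnt5a siRNA 3 or unstretched control 2 but lost without each of the other 9 libraries, with adjusted p up to 0.195 and a change of 0.24 without stretched control 2. The replicate block gave 0.0514 and TPM scaling a change of 0.18 (0.36). The Wnt5a siRNA without stretch changed it by −0.53 ± 0.16 (0.0243), which was lost without unstretched Wnt5a siRNA 1 (0.093) or 2 (0.0865) or unstretched control 2 (0.0892) or 3 (0.0751).

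**Figure D3:**
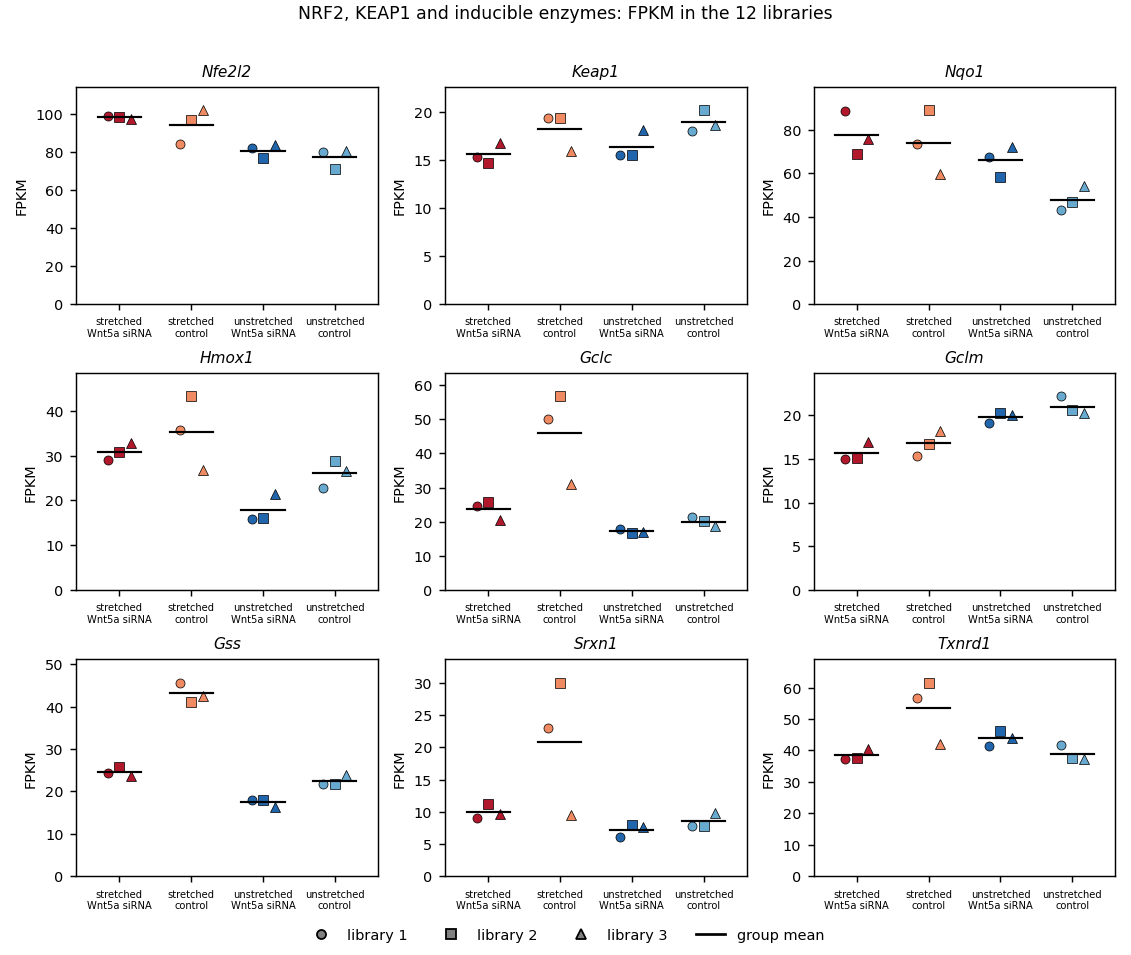
FPKM (vertical axes, from 0) of 9 members in each of the 12 libraries; groups run along the horizontal axes, symbols mark the library number and lines the group mean. For Gclc, Srxn1 and Txnrd1 libraries 1 and 2 of the stretched control are the highest points, and library 3 lies lower, at 31.0, 9.55 and 42.0 FPKM.

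The genes of glutathione synthesis split. Gclc and Gss, which catalyse the first and the last step, rose with stretch, and Gclm, the modifier subunit of the first enzyme, fell. Gclc, the catalytic subunit of glutamate cysteine ligase, was at 24.5, 25.8 and 20.6 FPKM in the stretched Wnt5a siRNA libraries and at 50.1, 56.7 and 31.0 in the stretched control. Without stretch it was at 17.8, 16.7 and 17.2 with Wnt5a siRNA and at 21.3, 20.2 and 18.8 with control siRNA. Each stretched control library was above every other library. Stretch with control siRNA raised Gclc 2.29-fold on the FPKM scale, a log2 change of 1.11 ± 0.17 (adjusted p = 1.6e-04), and of 1.37 without stretched control 3. Under stretch the Wnt5a siRNA libraries had 0.514 of the control level (−0.89 ± 0.17, adjusted p = 0.00455). The stretch change with Wnt5a siRNA was 0.43 ± 0.17 and did not pass (0.109); it passed without stretched control 3 (0.00396). The interaction was −0.68 ± 0.24 (0.0552), 0.0262 with the replicate number as a block and −0.94 (5.9e-04) without stretched control 3.

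Gss, glutathione synthetase, was at 24.5, 25.9 and 23.7 FPKM in the stretched Wnt5a siRNA libraries and at 45.7, 41.1 and 42.6 in the stretched control. Without stretch it was at 18.1, 18.0 and 16.5 with Wnt5a siRNA and at 21.9, 21.8 and 23.9 with control siRNA. The stretched control libraries stood above the rest without overlap, library 3 included. Gss was called in all 5 comparisons: 0.91 ± 0.07 for stretch with control siRNA (adjusted p = 2.4e-06), −0.78 ± 0.07 for Wnt5a siRNA with stretch (1.7e-04), −0.34 ± 0.07 for Wnt5a siRNA without stretch (0.0044), 0.47 ± 0.07 for stretch with Wnt5a siRNA (0.00124) and −0.44 ± 0.10 for the interaction (0.00992). These calls were kept in every other fit run, though the last 3 are smaller than the 1.5-fold change that a stricter rule asked for.

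Gclm was at 14.9, 15.1 and 16.9 FPKM in the stretched Wnt5a siRNA libraries and 19.0, 20.2 and 20.0 in the unstretched ones. With control siRNA it was at 15.4, 16.7 and 18.1 with stretch and 22.1, 20.5 and 20.2 without. All stretched libraries were below all unstretched ones. The change was −0.32 ± 0.08 with Wnt5a siRNA (adjusted p = 0.0164) and −0.31 ± 0.08 with control siRNA (0.00535), with an interaction of −0.01 ± 0.11. The first call was lost without stretched Wnt5a siRNA 1 (0.0736) or 2 (0.0608) or unstretched Wnt5a siRNA 2 (0.0532) or 3 (0.0531). Gsr, glutathione reductase, averaged 23.5 ± 2.1 FPKM in the stretched and 27.3 ± 1.7 in the unstretched control (SD, 3 libraries each), a change of −0.21 ± 0.08 (0.0408). The call ended when stretched Wnt5a siRNA 1 (0.0518) or 3 (0.0513), stretched control 3 (−0.14, 0.123), unstretched Wnt5a siRNA 1 (0.0546) or unstretched control 1 (0.0964) or 3 (0.141) was left out, and with the replicate block (0.0506). Glrx, a glutaredoxin, averaged 5.90 to 7.35 FPKM over the groups and passed in no comparison of the main fit. With TPM scaling it was lower for stretch with control siRNA (−0.30, 0.0429). With the replicate block it was lower for the Wnt5a siRNA without stretch (−0.28, 0.0465).

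Of the 4 enzymes that supply NADPH, Pgd and Me1 moved in different comparisons and Taldo1 and Tkt in none. Pgd, 6-phosphogluconate dehydrogenase, was at 94.9, 85.7 and 88.8 FPKM in the stretched Wnt5a siRNA and 90.2, 95.6 and 100.5 in the stretched control libraries, with 84.2, 85.6 and 84.0 against 66.2, 67.4 and 68.2 without stretch. The unstretched control was the lowest group, without overlap. Stretch with control siRNA raised it by 0.50 ± 0.06 (adjusted p = 2.7e-05) and the Wnt5a siRNA without stretch by 0.33 ± 0.06 (0.00239). With Wnt5a siRNA stretch changed it by 0.08 ± 0.06 (0.37), and the interaction was −0.41 ± 0.08 (0.00569). Me1, malic enzyme of the cytosol, was at 42.0, 36.4 and 40.8 FPKM in the stretched Wnt5a siRNA and 47.3, 49.9 and 50.4 in the stretched control libraries, with 54.1, 54.2 and 50.8 against 50.8, 44.8 and 52.5 without stretch. The stretched Wnt5a siRNA libraries were the lowest of all. Me1 fell with stretch under Wnt5a siRNA (−0.41 ± 0.07, 0.00394) and was lower with Wnt5a siRNA under stretch (−0.30 ± 0.07, 0.0133), and the interaction was −0.41 ± 0.11 (0.0173). With TPM scaling the second was −0.19 (0.0785) and the interaction −0.30 (0.0627), and after quantile normalization the second was −0.22 (0.0622). Taldo1 and Tkt, transaldolase and transketolase of the pentose phosphate pathway, averaged 87.2 to 97.0 and 132 to 143 FPKM over the groups. Their changes with stretch under control siRNA were 0.04 ± 0.06 and 0.03 ± 0.06, and −0.19 and −0.20 with TPM scaling, where both passed.

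Catalase, the peroxisomal enzyme that splits hydrogen peroxide, had the largest fall of the 43 members with stretch under control siRNA. It was at 44.2, 41.0 and 48.7 FPKM in the stretched Wnt5a siRNA and 35.2, 45.1 and 34.7 in the stretched control libraries. In unstretched cells it was at 51.4, 51.0 and 58.4 with Wnt5a siRNA and 81.8, 87.8 and 90.8 with control siRNA. The unstretched control stood above all other groups, and the stretched groups overlapped. The change was −1.17 ± 0.10 for stretch with control siRNA (0.442 of the unstretched level, adjusted p = 4.1e-06) and −0.69 ± 0.10 for the Wnt5a siRNA without stretch (0.00103). With Wnt5a siRNA stretch changed Cat by −0.26 ± 0.10 (0.108), and the interaction was 0.91 ± 0.14 (0.00225).

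Of the superoxide dismutases, Sod2 of the mitochondrion fell with stretch under control siRNA, and all 3 were called for the Wnt5a siRNA without stretch. Of all genes 14.6% were higher and 13.9% lower in the latter comparison. Sod2 averaged 55.9 ± 1.0 FPKM in the stretched Wnt5a siRNA, 63.3 ± 5.3 in the stretched control, 57.7 ± 3.0 in the unstretched Wnt5a siRNA and 77.8 ± 4.3 in the unstretched control libraries, with changes of −0.30 ± 0.07 for stretch with control siRNA (adjusted p = 0.00382) and −0.43 ± 0.07 for the siRNA without stretch (0.0017). Sod1, the enzyme of the cytosol, averaged 445 ± 31.5 FPKM in the unstretched Wnt5a siRNA and 597 ± 49.8 in the unstretched control (−0.42 ± 0.10, 0.0108), a call lost without unstretched control 3 (0.0526). Sod3, the secreted enzyme, went the other way, with 50.2 ± 1.7 and 34.1 ± 3.3 FPKM in the same groups (0.55 ± 0.11, 0.00439). Its change with stretch under control siRNA was 0.28 ± 0.11 (0.053), called with stretched Wnt5a siRNA 2 (0.0470), stretched control 1 (0.0135) or unstretched control 2 (0.0357) left out. Sod1 was not called for stretch with control siRNA in the main fit. It was called lower there with TPM scaling (−0.33, 0.0134) and after quantile normalization (−0.34, 0.0104).

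Of the 5 glutathione peroxidases, which reduce peroxides, 2 rose, 2 fell and 1 was not called with stretch under control siRNA. Of all genes 27.5% were higher and 26.8% lower there. Gpx7 and Gpx8, of the endoplasmic reticulum, rose, Gpx7 not with TPM scaling, while Gpx1, found in cytosol and mitochondria, and Gpx3, which is secreted, fell, and Gpx4 was not called. Gpx8 was at 130.3, 116 and 124 FPKM in the stretched Wnt5a siRNA and 159, 155 and 176 in the stretched control libraries, with 117, 119 and 101 against 101, 86.5 and 80.4 without stretch. The stretched control libraries were above all others. Gpx8 rose with stretch under control siRNA by 0.87 ± 0.09 (adjusted p = 1.3e-05), and under stretch the Wnt5a siRNA libraries were lower (−0.40 ± 0.09, 0.0102; −0.27, 0.0667 after quantile normalization). The interaction was −0.73 ± 0.13 (0.00359). Without stretch the Wnt5a siRNA raised it by 0.33 ± 0.09 (0.0195), a call lost without unstretched Wnt5a siRNA 1 (0.0739) or 2 (0.0761) or unstretched control 2 (0.0641) or 3 (0.0881). Gpx7 averaged 97.6 ± 7.1, 82.7 ± 12.9 and 78.2 ± 4.8 FPKM in the stretched Wnt5a siRNA, stretched control and unstretched Wnt5a siRNA libraries and 63.2 ± 6.2 in the unstretched control. Its rise with stretch under control siRNA was 0.38 ± 0.11 (0.00994), lost without unstretched control 3 (0.0507), with TPM scaling (0.15, 0.274) and after quantile normalization (0.24, 0.107). Its rise with the siRNA at rest was 0.31 ± 0.11 (0.0486), lost with the replicate block (0.0682), with TPM scaling (0.0581) and without 9 of the 12 libraries (up to 0.193).

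Gpx1 was at 231, 233 and 219 FPKM in the stretched Wnt5a siRNA and 306, 325 and 226 in the stretched control libraries, and at 193, 182 and 197 against 386, 365 and 347 without stretch. The unstretched control was the highest group and the unstretched Wnt5a siRNA the lowest, neither overlapping another. The Wnt5a siRNA without stretch lowered it to 0.521 of the control level (−0.94 ± 0.11, adjusted p = 4.0e-04), the largest fall of a member in that comparison. Stretch with control siRNA changed it by −0.37 ± 0.11 (0.012), or −0.21 without stretched control 3, and stretch with Wnt5a siRNA changed it by 0.26 ± 0.11 (0.133). The interaction was 0.63 ± 0.15 (0.0136). Gpx3 averaged 192 ± 11 FPKM in the stretched and 244 ± 11 in the unstretched control (−0.34 ± 0.07, 0.0012). Gpx4, which reduces lipid peroxides, averaged 223 ± 13 FPKM in the stretched and 172 ± 12 in the unstretched Wnt5a siRNA libraries (0.38 ± 0.08, 0.00971), a call lost without stretched Wnt5a siRNA 1 (0.0514). With control siRNA its change was 0.04 ± 0.08.

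In the thioredoxin system the genes of cytosolic proteins Txn1, Txnrd1 and Srxn1 rose with stretch under control siRNA, and those of mitochondrial proteins, Txn2 and Txnrd2, fell, as did Txnip. Txn1, thioredoxin, had the highest level of all members and Srxn1, which restores oxidized peroxiredoxins, was among the lowest. Txn1 was at 1040.5, 956 and 949 FPKM in the stretched Wnt5a siRNA and 1083, 1124 and 1129.7 in the stretched control libraries, with 914, 879 and 888 against 829, 777 and 847 without stretch. It rose with stretch under control siRNA (0.44 ± 0.06, adjusted p = 1.2e-04; 0.12, 0.126 after quantile normalization). The interaction was −0.31 ± 0.09 (0.0296), lost with TPM scaling (−0.20, 0.127), after quantile normalization (−0.16, 0.228) and without stretched Wnt5a siRNA 2 (0.0661) or 3 (0.0783), unstretched Wnt5a siRNA 1 (0.0766) or 2 (0.0518) or unstretched control 2 (0.0841). Txnrd1, thioredoxin reductase of the cytosol, was at 37.3, 37.7 and 40.5 FPKM in the stretched Wnt5a siRNA and 56.6, 61.6 and 42.0 in the stretched control libraries, with 41.5, 46.3 and 44 against 41.8, 37.5 and 37.4 without stretch. Libraries 1 and 2 of the stretched control were above all others, and library 3 lay among the unstretched ones. Txnrd1 rose with stretch under control siRNA by 0.43 ± 0.11 (0.00677; 0.21, 0.125 with TPM scaling) and was lower with Wnt5a siRNA under stretch (−0.44 ± 0.11, 0.0157), the second lost without stretched Wnt5a siRNA 1 (0.0521) or stretched control 1 (0.0689) or 2 (0.0604). The interaction was −0.62 ± 0.16 (0.0177). Without stretched control 3 these values were 0.59, −0.60 and −0.78.

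Srxn1 was at 8.997, 11.2 and 9.65 FPKM in the stretched Wnt5a siRNA and 23.0, 30.0 and 9.55 in the stretched control libraries. Without stretch it was at 6.06, 7.93 and 7.69 with Wnt5a siRNA and 7.88, 7.88 and 9.78 with control siRNA. Stretched control 1 and 2 were above all other libraries, whereas stretched control 3 was below unstretched control 3. The stretch change under control siRNA was 1.07 ± 0.29 (adjusted p = 0.0077), and 1.53 (6.6e-06) without stretched control 3. The Wnt5a siRNA with stretch gave −0.87 ± 0.29 (0.0436). This call was kept without stretched control 3 (−1.32, 5.1e-05) and lost without each of the other 11 libraries, with a change of −0.54 (0.168) without stretched control 2, and with TPM scaling (0.0572). The interaction was −0.65 ± 0.41 (0.265), and −1.11 (0.00168) without stretched control 3.

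Txn2 and Txnrd2, thioredoxin and its reductase in mitochondria, were lower in the stretched than in the unstretched control. Txn2 was at 129, 115 and 121 FPKM in the stretched Wnt5a siRNA and 121, 131 and 106 in the stretched control libraries, with 101, 109 and 109 against 139.6, 135 and 149.7 without stretch. Txnrd2 was at 11.1, 10.1 and 12.9 and at 11.9, 11.7 and 9.30 in the stretched groups, with 13.4, 14.6 and 13.8 against 19.6, 17.3 and 18.4 without stretch. Both were highest in the unstretched control, without overlap with other groups. Txn2 changed by −0.25 ± 0.08 with stretch under control siRNA (adjusted p = 0.0197; lost without stretched control 3, −0.16 and 0.0557, or unstretched control 3, 0.0812) and by −0.41 ± 0.08 with the Wnt5a siRNA at rest (0.00356), with an interaction of 0.44 ± 0.11 (0.0167). Txnrd2 changed by −0.70 ± 0.11 (1.5e-04) and −0.38 ± 0.11 (0.0188) in the same comparisons, the second lost without unstretched Wnt5a siRNA 1 (0.0668) or unstretched control 1 (0.0639) or 3 (0.0558). Its interaction was 0.43 ± 0.15 (0.0544) and passed without stretched control 2 (0.0473) or stretched Wnt5a siRNA 2 (0.0392). Txnip, which binds and inhibits thioredoxin, was at 187, 187 and 201 FPKM in the stretched Wnt5a siRNA and 177, 197 and 170 in the stretched control libraries, with 174, 142 and 210.2 against 267, 285 and 296 without stretch. The unstretched control again stood above the rest. Stretch with control siRNA changed it by −0.64 ± 0.11 (5.3e-04), the Wnt5a siRNA at rest by −0.70 ± 0.11 (0.00148) and stretch with Wnt5a siRNA by 0.14 ± 0.11 (0.43), with an interaction of 0.78 ± 0.16 (0.00627).

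Of the 6 peroxiredoxins, which reduce peroxides at a cysteine, Prdx1, Prdx4 and Prdx6 rose and Prdx3 fell with stretch under control siRNA. Of all genes 27.5% were higher and 26.8% lower. With TPM scaling 0 of the 6 were higher and 3 lower, against 13.8% and 42.8% of all genes. Prdx1, of the cytosol, averaged 505 ± 29.5 FPKM in the stretched Wnt5a siRNA and 531 ± 26 in the stretched control libraries, and 433 ± 22 against 411 ± 16 without stretch. Its change was 0.37 ± 0.07 with control siRNA (adjusted p = 6.7e-04; 0.14, 0.102 with TPM scaling) and 0.22 ± 0.07 with Wnt5a siRNA (0.0448). The second call was lost with the replicate block (0.0649), in a comparison where the replicate numbers were taken as pairs. It was also lost with TPM scaling (0.10, 0.327), after quantile normalization (0.04, 0.732) and without 10 of the 12 libraries, all but stretched control 2 and 3 (up to 0.176). Prdx4, of the endoplasmic reticulum, averaged 97.1 ± 10.6 FPKM in the stretched and 72.1 ± 3.2 in the unstretched control (0.42 ± 0.08, 9.7e-04; 0.20, 0.0741 with TPM scaling), and 91.7 ± 5.4 in the unstretched Wnt5a siRNA libraries (0.34 ± 0.08, 0.00943). Prdx3, of the mitochondrion, averaged 94.2 ± 2.6 FPKM in the stretched control and 93.9 ± 0.96 in the unstretched Wnt5a siRNA, against 119.9 ± 4.2 in the unstretched control (−0.34 ± 0.05, 2.0e-04, and −0.35 ± 0.05, 0.00122).

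Prdx6 averaged 305 ± 17 FPKM in the stretched and 267 ± 13 in the unstretched control (0.19 ± 0.07, adjusted p = 0.0328). It turned to −0.04 (0.66) with TPM scaling, was 0.01 (0.913) after quantile normalization and was lost without stretched control 1 (0.0779) or 2 (0.103) or unstretched control 1 (0.119) or 2 (0.0706). Prdx5 was lower with Wnt5a siRNA at rest, 143 ± 10.7 against 191 ± 3.4 FPKM (−0.42 ± 0.07, 0.00229), and rose with stretch under Wnt5a siRNA to 173 ± 2.5 FPKM (0.28 ± 0.07, 0.0247). The second call was lost with TPM scaling (0.16, 0.106), after quantile normalization (0.0609), without any of the 3 stretched Wnt5a siRNA libraries (0.0605 to 0.0863) and without unstretched Wnt5a siRNA 1 (0.0634) or 3 (0.101). Prdx2 averaged 380.3 to 448 FPKM and was not called in any comparison of the main fit. Its adjusted p for the Wnt5a siRNA without stretch was 0.0502. For stretch with control siRNA, Prdx2 was called lower with TPM scaling (−0.32, 0.00482) and after quantile normalization (−0.26, 0.00721). Prdx5 was called lower there too (−0.25, 0.00507 and −0.19, 0.0243).

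Of the 7 glutathione transferases, 6 fell with stretch under control siRNA, where 26.8% of all genes were lower. Gsta4, Gstm1, Gstm2, Gstt1, Mgst1 and Mgst3 were lower and Gstp1, at 0.22, was not called, and the median of the 7 was −0.59. All 6 falls were kept with TPM scaling, but that scaling lowered the median of all genes and called 42.8% of them lower. It is therefore a weak check of falls. Without stretched control 3 Gstp1 was called higher (0.40, adjusted p = 0.00293). These enzymes join glutathione to electrophiles, and Mgst1 and Mgst3 sit in membranes. With Wnt5a siRNA, Gstm2 alone of the 7 was called lower with stretch, where 7.59% of all genes were lower, and the median was 0.03. The interaction was called above 0 in Gsta4, Gstm1 and Mgst1 and below 0 in none, against 11.7% and 12.1% of all genes. Gstm1, of the mu class, was at 12.3, 11.2 and 15.3 FPKM in the stretched Wnt5a siRNA and 10.2, 10.6 and 8.26 in the stretched control libraries, with 13.4, 14.6 and 14.3 against 18.9, 23.8 and 20.6 without stretch. The unstretched control was the highest group and the stretched control the lowest, without overlap. Gstm1 changed by −1.05 ± 0.12 with stretch under control siRNA (adjusted p = 2.5e-05), by −0.54 ± 0.12 with Wnt5a siRNA at rest (0.00735) and by −0.13 ± 0.12 with stretch under Wnt5a siRNA (0.526), with an interaction of 0.92 ± 0.17 (0.00447). Under stretch it was higher with Wnt5a siRNA by 0.38 ± 0.12 (0.0402), a call lost without stretched control 3 (0.27, 0.0834), with the replicate block (0.0514) and without 6 other libraries (up to 0.169).

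Gsta4, which conjugates the lipid aldehyde 4-hydroxynonenal, was at 109, 111 and 108 FPKM in the stretched Wnt5a siRNA and 110.2, 137 and 85.1 in the stretched control libraries, with 89.8, 79.4 and 106 against 155, 154 and 173 without stretch. All unstretched control libraries were above all others. It changed by −0.56 ± 0.14 with stretch under control siRNA (adjusted p = 0.00549), by −0.81 ± 0.14 with Wnt5a siRNA at rest (0.00207) and by 0.26 ± 0.14 with stretch under Wnt5a siRNA (0.239). The interaction was 0.82 ± 0.20 (0.0138). Mgst1 was at 35.9, 26.8 and 43.0 FPKM in the stretched Wnt5a siRNA and 19.3, 18.6 and 24.7 in the stretched control libraries, with 26.3, 27.2 and 38.9 against 29.3, 33.0 and 32.6 without stretch. The stretched control libraries were the lowest of all. It changed by −0.59 ± 0.17 with stretch under control siRNA (0.0128) and was higher with Wnt5a siRNA under stretch by 0.72 ± 0.17 (0.0125), the second lost without stretched Wnt5a siRNA 3 (0.0595) or stretched control 1 (0.0546). The interaction was 0.78 ± 0.25 (0.0397), lost without 8 of the 12 libraries (up to 0.0994).

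Gstm2 was at 59.3, 59.7 and 69.7 FPKM in the stretched Wnt5a siRNA and 57.4, 66.1 and 49.4 in the stretched control libraries, with 88.1, 74.1 and 91.0 against 104, 95.1 and 91.4 without stretch. Every stretched library was below every unstretched one. Its change was −0.42 ± 0.11 with Wnt5a siRNA (adjusted p = 0.024) and −0.75 ± 0.11 with control siRNA (1.3e-04). The first call was lost without stretched Wnt5a siRNA 1 (0.098) or 2 (0.0827) or unstretched Wnt5a siRNA 1 (0.0890) or 3 (0.0882). Gstt1, of the theta class, was low, at 3.23, 4.10 and 4.72 FPKM in the stretched Wnt5a siRNA and 0.516, 3.39 and 4.06 in the stretched control libraries, with 4.27, 4.89 and 2.76 against 4.61, 6.58 and 5.94 without stretch. Stretched control 1 was far below the rest. Its fall with stretch under control siRNA was −1.04 ± 0.36 (0.0255). Without stretched control 1 it was −0.50 (0.0611), and it was lost too without unstretched control 2 (0.0772) or 3 (0.0657). Mgst3 averaged 205 ± 13.6 FPKM in the stretched Wnt5a siRNA, 156 ± 28.4 in the stretched control and 214 ± 11 in the unstretched control libraries. It changed by −0.47 ± 0.11 with stretch (0.00279) and by 0.41 ± 0.11 with Wnt5a siRNA under stretch (0.0176), lost without stretched control 1 (0.26, 0.0581), stretched Wnt5a siRNA 1 (0.0582) or 2 (0.0513). Gst genes of one class are near-identical in part, and how reads that match several genes were counted is not given in the sources used here.

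**Figure D4:**
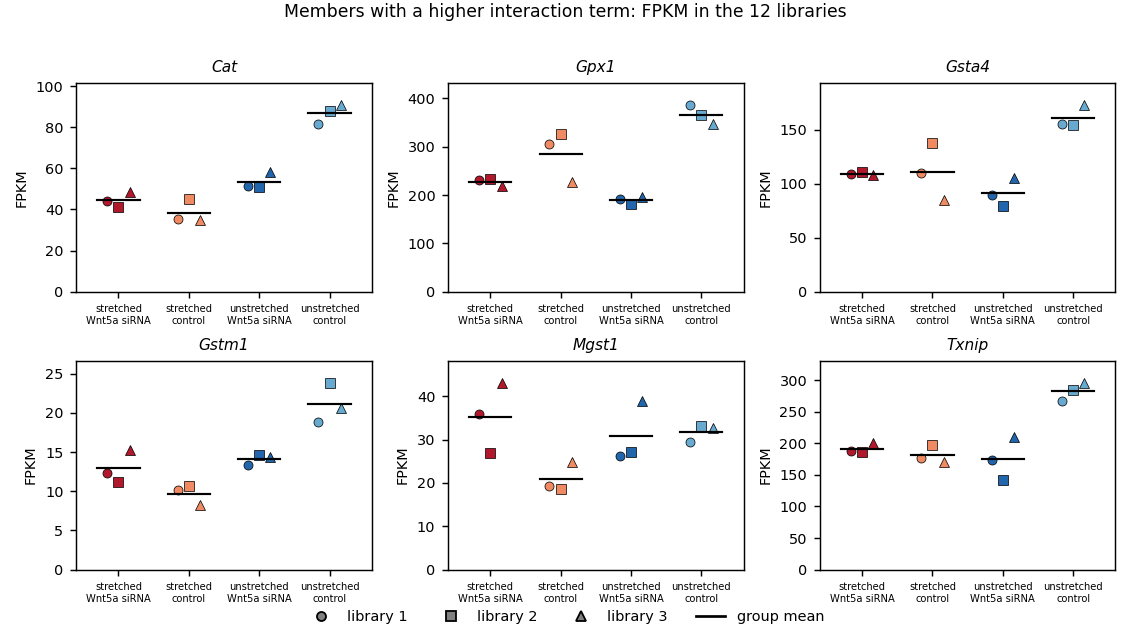
FPKM (vertical axes, from 0) of 6 members whose stretch change was more positive with Wnt5a siRNA than with control siRNA, in each of the 12 libraries; symbols mark the library number and lines the group mean. The unstretched control libraries are the highest for Cat, Gpx1, Gsta4, Gstm1 and Txnip, and the stretched control libraries the lowest for Mgst1.

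Of the metallothioneins, which bind zinc and copper, Mt2A was at 10.4 ± 3.8 FPKM in the stretched Wnt5a siRNA, 6.77 ± 3.2 in the stretched control, 8.70 ± 1.2 in the unstretched Wnt5a siRNA and 5.55 ± 4.1 in the unstretched control libraries. It was called in no comparison of the main fit. The Wnt5a siRNA without stretch passed when unstretched control 2 was left out (1.27, adjusted p = 0.04996). Its 95% interval for stretch with control siRNA ran from −0.56 to 1.35, an interval that holds changes in either direction. Mt1a, an older symbol of Mt1 in the RefSeq gene table and not counted among the members, was at 11.7, 5.31 and 10.2 FPKM in the stretched Wnt5a siRNA and 1.45, 0.649 and 4.26 in the stretched control libraries, with 14.9, 13.7 and 10.3 against 5.22, 14.9 and 8.82 without stretch. The stretched control libraries were its lowest, below every other library.

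**Figure D5:**
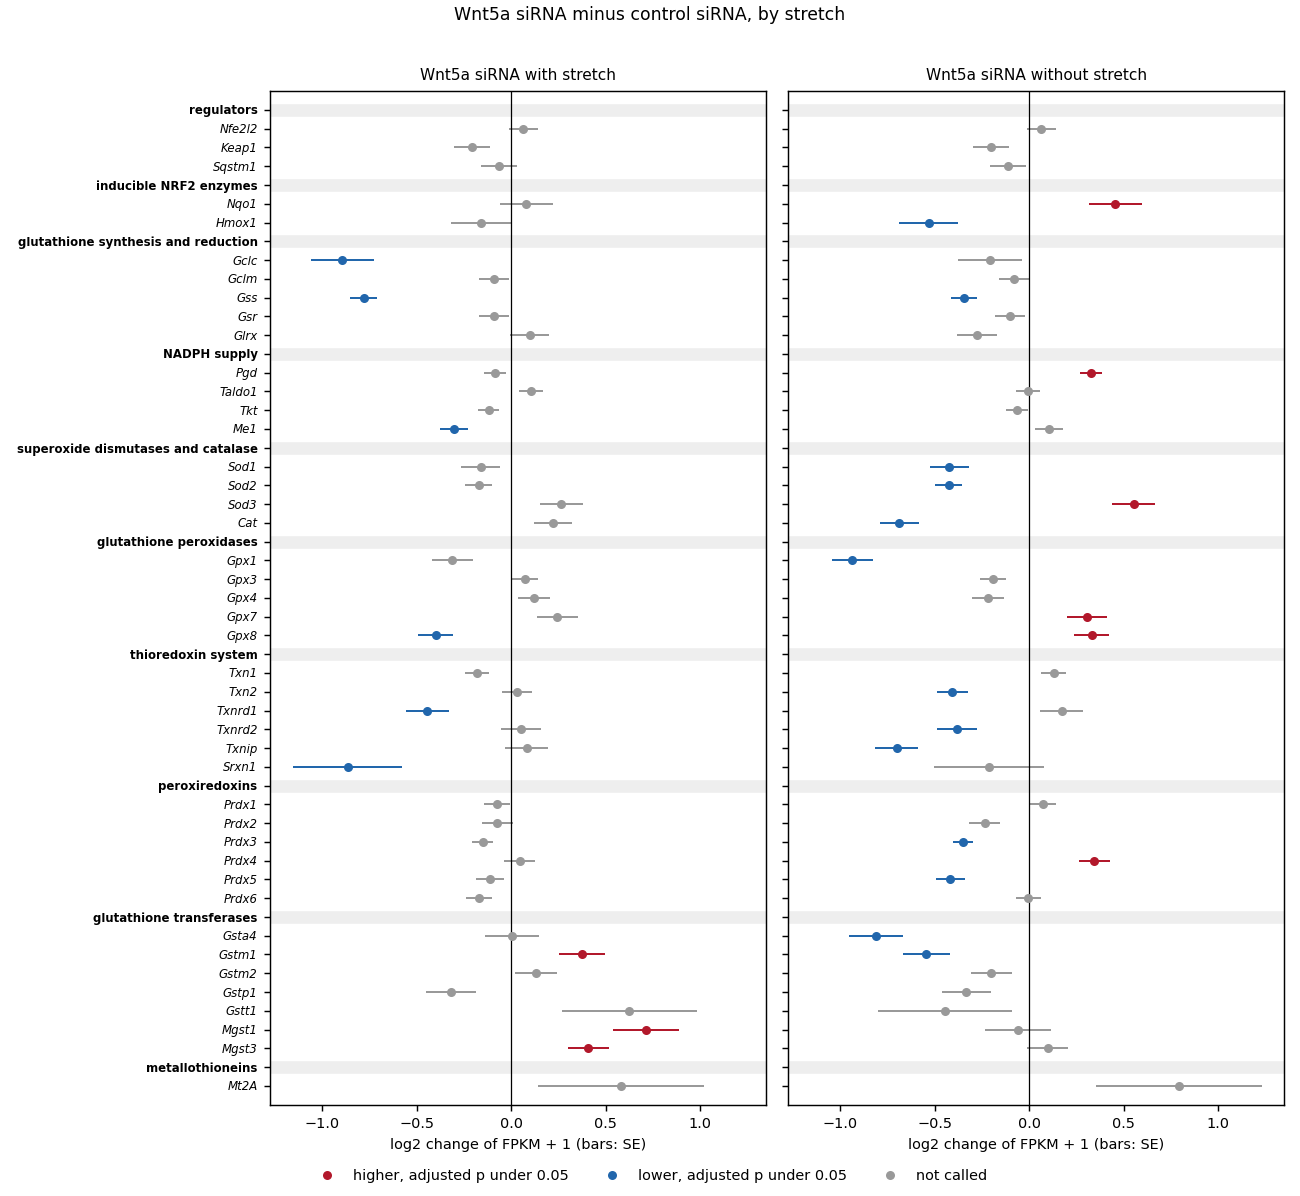
Log2 change of FPKM + 1 with Wnt5a siRNA against control siRNA (horizontal axis, bars: SE from the limma fit) for the 43 members by role, with stretch on the left and without it on the right; red and blue mark members called higher and lower. Gclc (−0.89), Srxn1 (−0.87) and Gss (−0.78) are the lowest with stretch, and Gpx1 (−0.94) and Gsta4 (−0.81) without it.

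Grouped by target status, 17 members are commonly listed as NRF2 targets and 26 other members were tested. Of the 17, stretch with control siRNA raised 8 and lowered 4, with a median log2 change of 0.22, and of the 26 it raised 6 and lowered 12, with a median of −0.10; of all genes 27.5% were higher and 26.8% lower. With TPM scaling the 17 had 5 higher and 7 lower and a median of −0.00, and the 26 had 2 higher and 17 lower and a median of −0.32, against 13.8% and 42.8% of all genes. The 8 that rose were Nqo1, Hmox1, Gclc, Pgd, Txn1, Txnrd1, Srxn1 and Prdx1, and the 4 that fell were Gclm, Gsr, Gsta4 and Gstm1. The targets did not move as 1 group, and Nfe2l2 mRNA says nothing of NRF2 protein. With Wnt5a siRNA stretch raised 2 of the 17 (Hmox1 and Prdx1) and lowered 2 (Gclm and Me1), against 8.44% and 7.59% of all genes. Under stretch the Wnt5a siRNA raised 1 and lowered 4 of the 17 (13.2% and 14.2% of all genes), with 2 higher and 2 lower under TPM scaling and 0 higher and 6 lower without stretched control 3. Without stretch it raised 2 and lowered 3 (14.6% and 13.9% of all genes).

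Promoters were read from the RefSeq table for the rat assembly GRCr8, which holds windows of 300 bases, 250 before and 50 after each start. By symbol or older symbol 37 of the 44 members matched; Hmox1, Gsr, Sod3, Gpx8, Txnip, Prdx6 and Gstt1 did not. The core of the antioxidant response element, TGACNNNGC on either strand, was present in 10 of the 37 (27.0%) and in 4038 of all 33469 promoters (12.1%). It was in 4 of 15 common NRF2 targets (26.7%) and 6 of 22 other members (27.3%). The 10 were Nfe2l2, Gclm, Me1, Sod2, Prdx1, Prdx4, Prdx5, Gstp1, Mt1 and Mt2A. Letters in such a window are not a binding site, and elements further away were not searched. Of the 4 common targets with the core, the promoters of 3 that went different ways in the main fit are shown, with the core in capitals. On the strand shown it reads GCNNNGTCA in Gclm and Prdx1. The other common target, Gstp1, has the core 61 bases before the start, was called in no comparison of the main fit and is not shown. Gclm lies at chr2:213031885-213032184 on the plus strand, Prdx1 at chr5:135383656-135383955 on the plus strand and Me1 at chr8:96540195-96540494 on the minus strand. The core starts 172 bases before the start in Gclm, 135 in Prdx1 and 167 in Me1.
Gclm: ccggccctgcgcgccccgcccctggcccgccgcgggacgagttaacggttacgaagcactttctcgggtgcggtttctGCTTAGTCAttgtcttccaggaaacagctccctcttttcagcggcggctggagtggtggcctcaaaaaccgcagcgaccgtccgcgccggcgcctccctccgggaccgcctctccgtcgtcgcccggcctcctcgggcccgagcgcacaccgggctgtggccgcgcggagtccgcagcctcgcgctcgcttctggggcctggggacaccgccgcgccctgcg
Prdx1: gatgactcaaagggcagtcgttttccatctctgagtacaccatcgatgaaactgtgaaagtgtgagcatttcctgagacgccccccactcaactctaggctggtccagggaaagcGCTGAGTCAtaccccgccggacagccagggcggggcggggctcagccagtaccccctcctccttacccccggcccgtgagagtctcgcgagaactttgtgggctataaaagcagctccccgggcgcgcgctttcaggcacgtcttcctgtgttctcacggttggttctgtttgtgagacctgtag
Me1: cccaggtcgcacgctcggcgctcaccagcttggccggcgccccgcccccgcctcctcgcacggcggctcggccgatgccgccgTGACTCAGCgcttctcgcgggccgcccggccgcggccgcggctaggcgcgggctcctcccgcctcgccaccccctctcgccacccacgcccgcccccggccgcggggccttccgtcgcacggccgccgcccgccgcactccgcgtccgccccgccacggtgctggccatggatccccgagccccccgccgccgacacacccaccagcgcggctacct

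Stretch lowered Gclm in both siRNA groups. It raised Prdx1 with control siRNA, and with Wnt5a siRNA by a call that the replicate block ended (0.22, adjusted p = 0.0649). Me1 fell with Wnt5a siRNA and changed by −0.00 ± 0.07 with control siRNA, or by −0.23 (adjusted p = 0.0251) with TPM scaling. The motif TGCNCNC, a loose form of the metal response element core searched on either strand, had 7 matches in the Mt1 and 5 in the Mt2A promoter. At least 1 match was held by 24 of the 37 members (64.9%) and 49.6% of all promoters.

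Genes that act beside the members were counted from lists written with knowledge of the pathways and with earlier results of these data known. Their counts for stretch with control siRNA stand against 27.5% of all genes higher and 26.8% lower, 13.8% and 42.8% with TPM scaling, and 29.2% and 28.1% without stretched control 3. Of 12 tested partners and regulators of NRF2, stretch with control siRNA raised 4 and lowered 2, with 3 higher and 6 lower under TPM scaling and 6 and 1 without stretched control 3. Maff and Mafk, small MAF partners of NRF2, rose by 1.33 ± 0.24 (adjusted p = 4.8e-04) and 0.96 ± 0.28 (0.0110), and Bach1, a repressor at the same elements, rose by 0.44 ± 0.08 (8.1e-04). Mafk was added after its values were seen, and the 2 lowered genes of this list are not named here. Under stretch Maff and Mafk were lower with Wnt5a siRNA, by −0.96 ± 0.24 (0.0127) and −1.10 ± 0.28 (0.0141), and no other gene of the list was called there. Of 19 other NRF2 target genes stretch raised 4 and lowered 9 (4 and 11 with TPM scaling), with Abcc4, an efflux pump, at −1.40 ± 0.17 (3.3e-05). Of 19 other glutathione and transferase genes stretch raised 5 and lowered 9 (4 and 11 with TPM scaling). Oplah, 5-oxoprolinase of the glutathione cycle, fell by 1.40 ± 0.12 (4.3e-06), and Slc3a2, a subunit of amino acid transporters, rose by 0.68 ± 0.06 (6.0e-06). Under stretch 8 of these 19 were higher and 0 lower with Wnt5a siRNA (10 and 1 without stretched control 3), where 13.2% and 14.2% of all genes were called, Gstm5 and Gstk1 by 0.56 ± 0.07 (0.0016) and 0.84 ± 0.12 (0.00161).

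A list of FoxO and PGC1 regulators, which drive antioxidant and mitochondrial genes, also held Sirt3, which is neither. All 6 tested genes of the list fell with stretch under control siRNA, with a median of −0.58. In that comparison 26.8% of all genes were lower. The 6 were also lower with TPM scaling (42.8% of all genes) and without stretched control 3 (28.1%). They were Foxo1, Foxo3, Foxo4, Sirt3, Ppargc1a and Ppargc1b. Ppargc1a, which encodes PGC1 alpha, changed by −1.31 ± 0.13 (adjusted p = 8.1e-06). Under stretch it was higher with Wnt5a siRNA by 0.72 ± 0.13 (0.00368), and its interaction was 1.16 ± 0.18 (0.00221). The list fell in the same comparison as Cat, Sod2, Prdx3, Txn2 and Txnrd2. These are some of the 16 members that fell there, while 14 members rose. Joint movement of the list and the members was not tested. Of 12 genes of superoxide sources stretch with control siRNA raised 5 and lowered 0, with 3 higher and 1 lower under TPM scaling and 4 and 1 without stretched control 3. Cybb, the catalytic subunit of the phagocyte NADPH oxidase, rose by 0.90 ± 0.18 (0.00112), in the libraries whose macrophage marker sums were also higher. Arrdc4, which like Txnip is a target of the glucose sensor Mondo, changed by −0.50 ± 0.15 (0.0159) with stretch under control siRNA and by −0.81 ± 0.15 (0.00309) with Wnt5a siRNA at rest, with an interaction of 0.75 ± 0.22 (0.0268).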

How the data were processed

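RNA extraction used an miRNeasy kit, and library preparation a TruSeq stranded mRNA kit, per the labels' protocols. The authors' deposited values are FPKM per gene symbol and library, made with TopHat2 2.1.1, Bowtie2 and Cuffdiff 2.2.1 on the rat build rn6, per the submitters' processing notes. Not given in the sources used here: the annotation, the setting for strand, and how multi-mapped reads were counted. FPKM hold no counts, so the depth behind each value is unknown.

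From these values log2(FPKM + 1) was fitted with limma 3.58.1 in R 4.3.3 over all 12 libraries as 4 group means (eBayes with trend, 8 residual degrees of freedom, 2-sided). Adjusted p-values are Benjamini-Hochberg over the 10518 symbols that reached 1 FPKM in 3 or more libraries, with a threshold of 0.05. Changes are on the log2(FPKM + 1) scale, which understates those of low genes, and are given ± SE; levels are FPKM, as mean ± SD of 3 libraries. The fit was tested on simulated data. The members, the pathway lists and the tests were chosen with earlier results of these data known. Every library is printed for 23 members: 8 fixed by name, those called with a change of at least 0.58 in a pairwise comparison, and those called in the interaction. The other 20 are given by mean or range, and other lists by counts and at most 3 called genes with the smallest adjusted p, Mafk excepted, which was added after its values were seen. Alternatives changed the pseudocount, the filter, the scaling (median ratio, quantile, TPM), the variance prior, the libraries fitted and the call rule, added the replicate number as a block, or left out each library in turn. Same-numbered libraries had correlations above 0.1 in all 3 pairs for stretch with Wnt5a siRNA alone (0.18, 0.24 and 0.14), so the numbers were taken as pairs there. The main fit holds no pairing in any comparison. Promoter sequences are RefSeq's for GRCr8, another build than that of the FPKM. The result of 1 further gene among the other NRF2 targets is not reported here.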

Additional observations from a re-analysis of the deposited data

Results flagged for a closer look

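The stretch change of 13 members differed between the siRNAs by the test of the difference itself (limma interaction term, adjusted p under 0.05), given here as the log2 change with Wnt5a siRNA minus that with control siRNA. Of the members 16.3% were called above 0 and 14.0% below it, near the 11.7% and 12.1% of all genes. The difference was above 0 in 7 members, which fell with stretch under control siRNA: Gstm1 at 0.92, Cat at 0.91, Gsta4 at 0.82, Txnip at 0.78, Mgst1 at 0.78, Gpx1 at 0.63 and Txn2 at 0.44. It was below 0 in 6 members: Gpx8 at −0.73, Txnrd1 at −0.62, Gss at −0.44, Pgd at −0.41, Me1 at −0.41 and Txn1 at −0.31. Of these 6, 5 rose with stretch under control siRNA, and Me1 fell with stretch under Wnt5a siRNA. The difference subtracts the change with control siRNA, measured in the same libraries. A fall there thus pushes it above 0 and a rise below 0, so the opposite signs are not a separate result. The interactions of Txn1 and Me1 were lost with TPM scaling and that of Mgst1 without 8 of the 12 libraries. Groups of 3 libraries are too small for a test of single libraries, so the distances given for stretched control 3 are a description.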

How the results depend on the processing

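Of the members called, 24 of 30 for stretch with control siRNA, 3 of 9 for stretch with Wnt5a siRNA, 4 of 9 for Wnt5a siRNA with stretch, 13 of 19 for Wnt5a siRNA without stretch and 11 of 13 for the interaction were kept without each library in turn. Under every alternative run but the 1.5-fold rule, 18, 3, 2, 13 and 10 were kept in the same order. Direction reversed for stretch with control siRNA in Taldo1 (−0.19 with TPM scaling), Tkt (−0.15 after quantile normalization, −0.20 with TPM scaling) and Prdx6 (−0.038 with TPM scaling), a scaling that lowered the median of all genes. With a change of at least 1.5-fold also required, the calls in that order were 12, 1, 4, 4 and 8. With only the groups compared in the fit, 15 members were called for stretch with Wnt5a siRNA and 5 for Wnt5a siRNA with stretch; the cause was not tested. Leaving out 1 library gave 3 (without stretched Wnt5a siRNA 1) to 17 (without stretched control 3) calls for stretch with Wnt5a siRNA, and also 4 without stretched Wnt5a siRNA 2 and 5 without unstretched Wnt5a siRNA 1 or 3. For Wnt5a siRNA with stretch it gave 4 (without stretched control 1) to 20 (without stretched control 3). Without stretched control 3 the share of all genes called moved too. For stretch with Wnt5a siRNA it went from 8.44% higher and 7.59% lower to 12.6% and 12.3%. For Wnt5a siRNA with stretch it went from 13.2% and 14.2% to 21.8% and 22.6%. With the replicate block the calls were 28, 8, 9, 19 and 15. For stretch with Wnt5a siRNA, where the numbers were taken as pairs, Prdx1 alone lost its call. Each of the other comparisons had a pair with a correlation of 0.1 or less and was not taken as paired. Wnt5a siRNA with stretch was near that cutoff (0.22, 0.09 and 0.23), so whether the numbers pair libraries there is not settled. Apart from those without stretched control 3, the counts in this section stand without a share of all genes under the same setting. They are therefore not read as a result about the members. Gstt1 had no value with a filter at 5 FPKM. With 3 libraries a group and unknown depth, small changes of low genes such as Mt2A and Gstt1 had wide errors.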

Other observations

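Neighbouring lists held both directions too, with counts for stretch with control siRNA that stand against 27.5% of all genes higher and 26.8% lower, and 13.8% and 42.8% with TPM scaling. Of 12 tested selenoprotein genes and genes of their synthesis, stretch with control siRNA raised 4 and lowered 2 (3 and 5 with TPM scaling), Vimp by 0.93 ± 0.08 (limma adjusted p = 4.6e-06) and Selm by 0.81 ± 0.08 (9.9e-06), both genes of the endoplasmic reticulum, while Pstk, a kinase needed to make selenocysteine, changed by −1.34 ± 0.13 (8.6e-06). Their interactions were −0.61, −0.64 and 0.99, all called. Of 8 genes of mitochondrial NADPH supply 2 were higher and 2 lower (1 and 4 with TPM scaling, and likewise without stretched control 3): Mthfd2, a folate enzyme, rose by 0.88 ± 0.11 (4.0e-05), and Idh2 and Nnt, which make NADPH in mitochondria, changed by −1.08 ± 0.17 (1.6e-04) and −0.62 ± 0.10 (1.7e-04). Of 12 iron and heme genes 4 were higher and 3 lower (1 and 3 with TPM scaling), with Tfrc, the transferrin receptor, at 0.83 ± 0.10 (3.4e-05). Of 9 genes of metal sensing and transport 3 were higher and 1 lower (2 and 1 with TPM scaling), and Slc39a10, a zinc importer, rose with stretch in both siRNA groups, by 0.63 ± 0.09 (0.00118) with Wnt5a siRNA and by 1.14 ± 0.09 (3.3e-06) with control siRNA. Of 13 other thioredoxin fold and repair genes 5 were higher and 4 lower (2 and 5 with TPM scaling, 4 and 5 without stretched control 3), and of 10 autophagy partners of Sqstm1 1 was higher and 1 lower (0 and 4 with TPM scaling, 2 and 2 without stretched control 3).

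Without stretch, the Wnt5a siRNA raised 4 and lowered 6 of the 19 other glutathione and transferase genes, against 14.6% and 13.9% of all genes. Cth, which makes cysteine from cystathionine, and Chac1, which breaks down glutathione, were higher, by 1.38 ± 0.20 (adjusted p = 9.3e-04) and 0.95 ± 0.15 (0.00143), in the same comparison in which Gss was lower.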
